A study of Rattus norvegicus with 23 samples.

Results

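The genes described here encode the mitochondrial respiratory chain and ATP synthase of the rat liver. Members were taken by gene symbol, as genes of the Ndufa, Ndufb, Ndufc, Ndufs and Ndufv families, Sdha to Sdhd with the Sdhaf assembly factors, the Uqcr genes, Cox4 to Cox8 and Atp5. The rule used no measured value. It found 90 of the 14217 genes that a probe set named alone, and each gene was read from its brightest probe set (by the mean of the 23 arrays). The members were 70 subunits of the 5 complexes, 6 complex I assembly factors, 4 complex II assembly factors, 6 subunit isoforms of complex IV known from muscle, lung or testis, and 4 single genes, namely the ATP synthase inhibitor Atp5if1, the supercomplex factor Cox7a2l, the Ndufa4 paralogue Ndufa4l2 and the pseudogene Cox6c-ps1. Of the 70 subunits, 34 belonged to complex I, 4 to complex II, 7 to complex III, 10 to complex IV with Ndufa4 counted there, and 15 to ATP synthase. All 90 members were kept in every comparison, with no filter on low values.

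The respiratory chain passes electrons from NADH (complex I) and succinate (complex II) through ubiquinone, complex III and cytochrome c to oxygen at complex IV. Complexes I, III and IV pump protons out of the matrix, and ATP synthase uses the returning protons to make ATP. Most subunits are encoded in the nucleus, as are all members here, and they are put together with the help of assembly factors that do not stay in the finished complex. Liver has a dense mitochondrial content and depends on this chain for gluconeogenesis, urea synthesis and bile formation.

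Arrays were made from the left lateral liver lobe of 23 male Sprague Dawley rats, typically 6 to 8 weeks of age at the start, dosed by oral gavage over 5 days and fasted overnight before necropsy. Alpha-naphthylisothiocyanate (ANIT), a bile duct toxicant, was given at 100 mg/kg and compared with corn oil at 5 ml/kg, and methylenedianiline (MDA), another bile duct toxicant, at 100 mg/kg with 35% ethanol at 2 ml/kg. Acetaminophen (APAP) at 1000 mg/kg was compared with corn oil at 2 ml/kg, and the anti-inflammatory drug diclofenac (DCLF) at 10 mg/kg with water at 10 ml/kg. Each group held 3 rats except water, which held 2. Before the animal number, the sample titles of ANIT and its vehicle share a code. Those of MDA and its vehicle share another, and those of APAP, DCLF and their vehicles a further. For the 5 ml/kg corn oil group the sample titles carry distinct leading animal numbers and a shared trailing number, so counting 3 rats there rests on the former.

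The deposited values were log2 levels after robust multi-array averaging (RMA), with array medians from 8.95 to 9.02. Hepatocyte markers averaged a log2 level of 14.07 to 14.84 over 16 genes in every sample, bright as in liver. One corn oil sample at 5 ml/kg (14.08) and 2 ANIT samples (14.07 and 14.19) lay below the other 20 samples, which ran from 14.45 upwards. Whole liver was measured, so fewer cells of a type and less RNA per cell cannot be told apart. A gene was called when limma gave a Benjamini-Hochberg adjusted p under 0.05 over all probe sets and the fold change was over 1.5. Since subunits of one complex can move by less than that, the adjusted p alone was also counted. Changes are log2 compound minus own vehicle, with the standard error, and 3 rats a group limit their precision.

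The promoters of Atp5if1, the member called in most comparisons, and of Sdhaf1 and Sdhaf3, a pair of assembly factors that moved in opposite directions, are shown first, as the 250 bases before the transcription start in RefSeq (build GRCr8), 5′ to 3′ on the gene's strand. They are Atp5if1 at chr5:150026678-150026927 (minus strand), Sdhaf1 at chr1:94704612-94704861 (minus strand) and Sdhaf3 at chr4:36066713-36066962 (plus strand). Capitals mark matches to the motifs searched.
Atp5if1: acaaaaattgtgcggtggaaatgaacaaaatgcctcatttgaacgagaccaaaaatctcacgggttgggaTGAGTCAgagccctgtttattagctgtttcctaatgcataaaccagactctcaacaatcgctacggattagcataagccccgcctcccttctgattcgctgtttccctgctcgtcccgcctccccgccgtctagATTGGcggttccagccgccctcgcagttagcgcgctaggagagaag
Sdhaf1: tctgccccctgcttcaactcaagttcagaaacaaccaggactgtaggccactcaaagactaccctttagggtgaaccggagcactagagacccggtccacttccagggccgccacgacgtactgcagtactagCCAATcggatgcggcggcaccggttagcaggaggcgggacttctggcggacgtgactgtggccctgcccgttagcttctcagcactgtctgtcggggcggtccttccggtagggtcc
Sdhaf3: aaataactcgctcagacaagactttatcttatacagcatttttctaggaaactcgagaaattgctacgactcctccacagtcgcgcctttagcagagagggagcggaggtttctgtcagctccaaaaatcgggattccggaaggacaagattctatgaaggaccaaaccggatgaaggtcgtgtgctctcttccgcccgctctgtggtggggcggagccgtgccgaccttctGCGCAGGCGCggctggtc
The Atp5if1 window held an AP-1 match 180 bases before the start and a CCAAT box, on the opposite strand, 46 bases before it. Sdhaf1 held a CCAAT box 117 bases before the start, and Sdhaf3 a match for nuclear respiratory factor 1, a regulator of respiratory genes, 18 bases before it. The motifs were chosen with the expression values known, were searched on both strands over 300 bases that include 50 after the start, and a match is a description of letters only.

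Across the 82 members with a promoter in that table, the nuclear respiratory factor 1 motif (GCGCA, any base, then GCGC) was present in 17 (20.7%), against 4.25% of all 33469 promoters. The YY1 motif AAGATGGCG was present in 11 members (13.4%) and in 1.73% of all promoters. The ETS motif CCGGAAGT was present in 8 (9.76%) and in 3.81% of all. Motifs of stress-responsive factors had shares near the background, with the antioxidant response element TGACNNNGC in 10 members (12.2% against 12.1%) and AP-1 TGANTCA in 5 (6.1% against 7.33%). CCAAT was found in 29 members (35.4%) and in 37.5% of all promoters, and none of the 6 motifs overlapped another in the 3 windows printed.

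The members were measured with a small spread. The median of their SD within groups, pooled over the 8 groups, was 0.101 on the log2 scale, against 0.133 for all genes. Their mean levels ran from 5.70 to 13.96, and 52 of the 90 lay at 12 or higher. The heat map of all members shows where samples left their vehicle: most subunits were paler or blue in the MDA columns, and single genes such as Atp5if1 were red in some compounds.

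**Figure D1:**
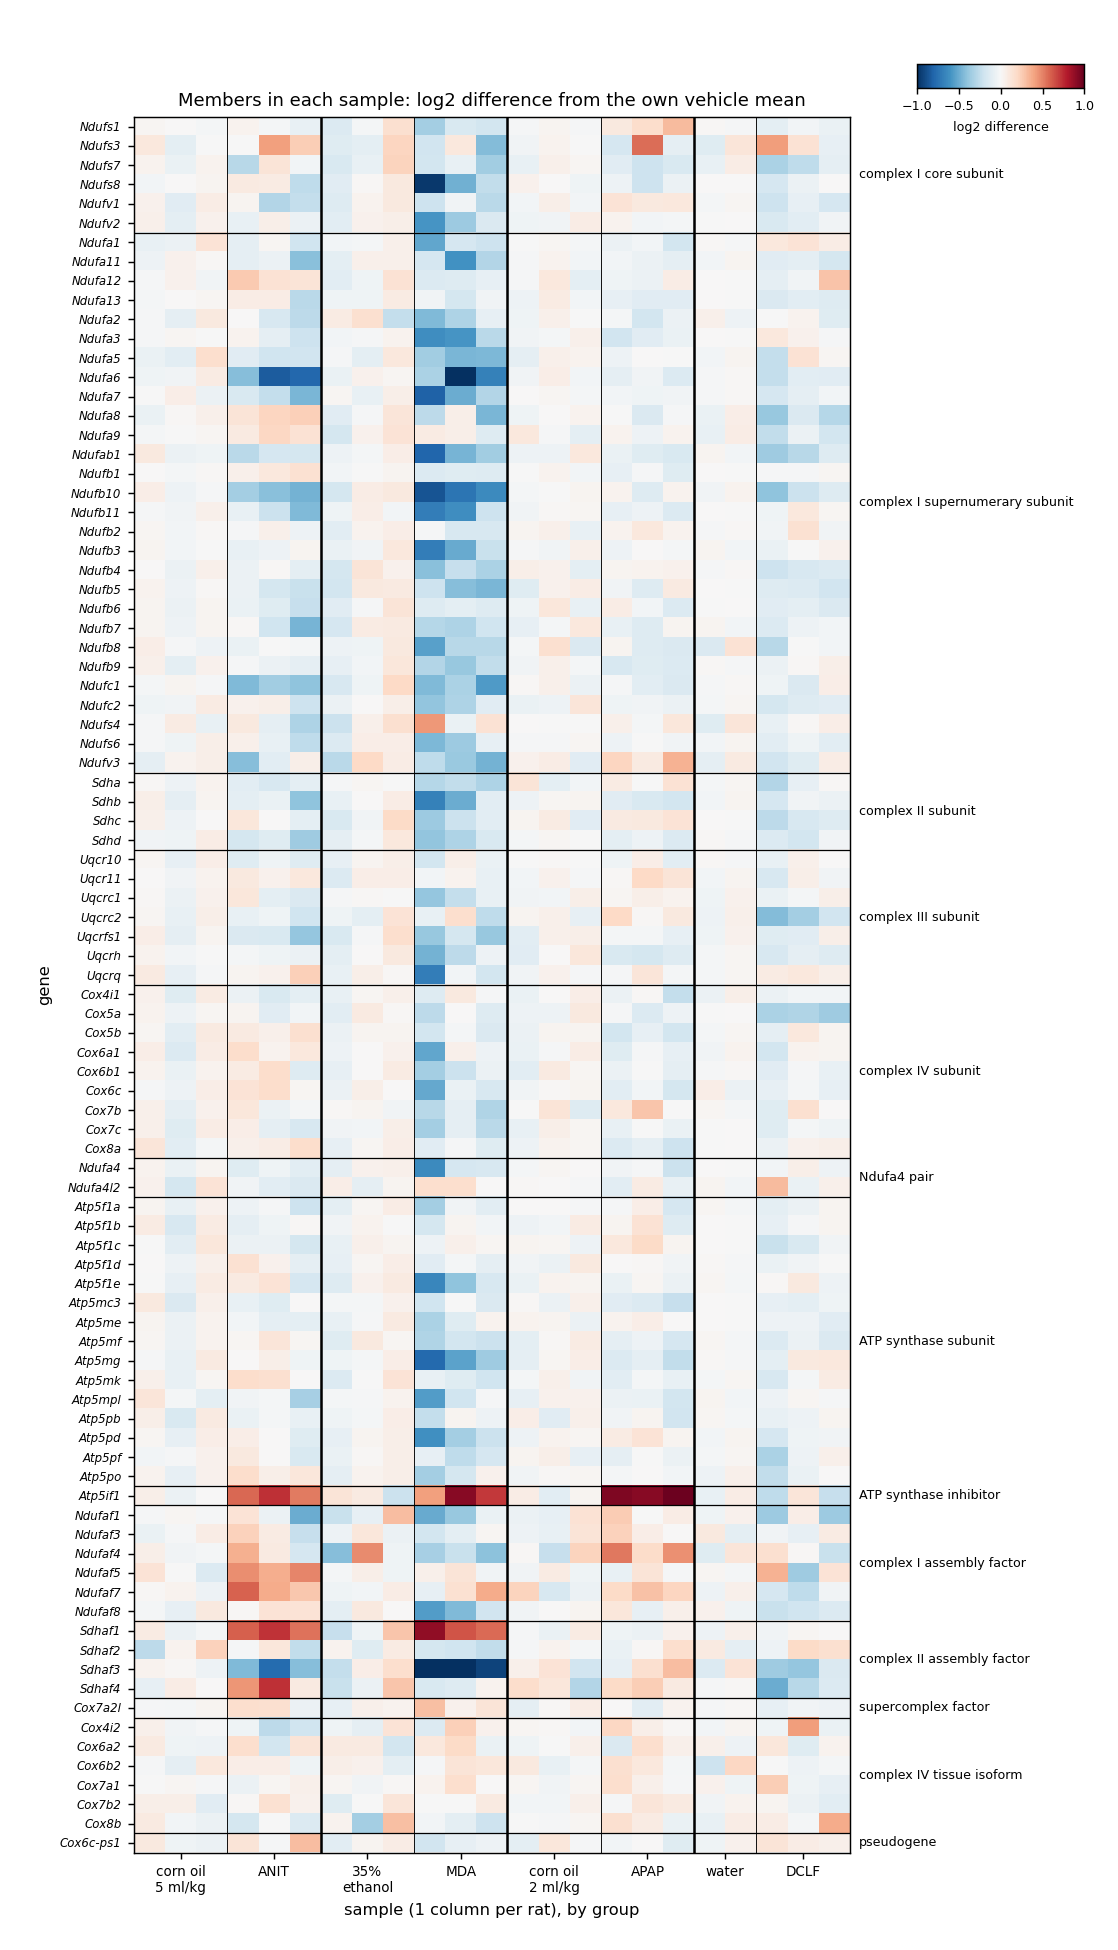
Log2 difference of each of the 90 members (rows, by role) from the mean of the own vehicle group in each of the 23 rats (columns, by group), with colours ending at -1 and 1. Atp5if1 is red in the ANIT, MDA and APAP columns, Sdhaf3 is darkest blue under MDA, and complex I subunits are mostly blue in the MDA columns.

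Atp5if1, the inhibitor that binds ATP synthase and blocks its reverse, ATP-consuming action, was the single member called in 3 of the 4 compounds. Its log2 level was 10.32, 10.14 and 10.27 in the corn oil rats at 2 ml/kg and 11.17, 11.15 and 11.22 under APAP. Every APAP rat lay above every vehicle rat, and Atp5if1 rose by 0.94 ± 0.076 (1.92-fold, 95% interval 0.76 to 1.12, adjusted p = 0.00346). In the ANIT study the level was 10.59, 10.48 and 10.53 with corn oil and 11.11, 11.26 and 11.05 with ANIT. The groups did not overlap, and the rise was 0.61 ± 0.084 (adjusted p = 0.00486). Under 35% ethanol the rats measured 10.64, 10.60 and 10.29, and under MDA 10.92, 11.42 and 11.22. The groups again did not overlap, with a wider spread, and the rise was 0.68 ± 0.15 (adjusted p = 0.0204). DCLF rats measured 10.03, 10.40 and 10.05 and water rats 10.21 and 10.35. These groups overlapped, and the difference of -0.12 ± 0.13 did not pass (adjusted p = 0.727). The Atp5if1 call held for APAP without any 1 rat, but was lost for ANIT without ANIT replicate 2 (0.55) or corn oil replicate 2 (0.58) and for MDA without MDA replicate 2 (0.56) or 3 (0.66) or ethanol replicate 2 (0.72) or 3 (0.57). With the methods' t-test the adjusted p of Atp5if1 was 0.168 for APAP, 0.0572 for ANIT and 0.153 for MDA, and no call was kept.

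Atp5if1 has 3 probe sets, and they disagreed in size. The values above come from the brightest, with a mean log2 level of 10.67. The next, at 10.01, gave 0.15 for ANIT, 0.34 for MDA, 0.33 for APAP and -0.13 for DCLF, of which MDA passed the adjusted p (0.0495). The dimmest, at 8.37, gave 0.36 for ANIT, 0.79 for MDA (adjusted p = 0.0043, called), 0.15 for APAP and 0.48 for DCLF (adjusted p = 0.384). With the mean of the 3 probe sets the APAP change was 0.48 (adjusted p = 0.0996) and was lost, the ANIT change was 0.37 (adjusted p = 0.0402) and fell short of the fold, and the MDA change of 0.60 (adjusted p = 0.0106) stayed called. The probe sets gave a positive value in each of these 3 compounds, while the size for APAP rested on the brightest.

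**Figure D2:**
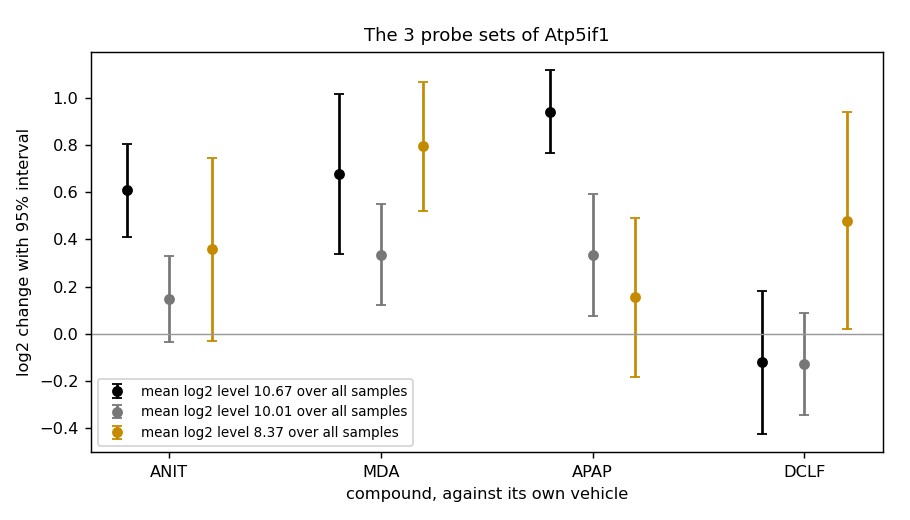
Log2 change of the 3 probe sets of Atp5if1 (points, by mean level over all samples) for each compound against its vehicle, with the 95% interval of limma. The brightest probe set gives 0.94 for APAP while the others give 0.33 and 0.15, and for MDA all 3 intervals lie above 0.

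Respiratory chain transcripts were lower under MDA by small amounts, with a negative median in each complex. Of the 90 members 5 were called, 2 higher and 3 lower, against 9.13% of all genes called (4.9% higher and 4.23% lower). By the adjusted p alone 2 rose and 12 fell, against 16.8% of all genes (8.29% higher and 8.55% lower). With the methods' t-test and an adjusted p, 0 of the 5 calls were kept and 1 member passed the adjusted p, while limma with all 8 groups in 1 fit had 37 members past it. The median change of the members was -0.21 where that of all genes was 0.0020, and 76 of 90 lay below 0 against 49.7% of all genes. Levels of the MDA and ethanol rats did not overlap for 38 members in the lower direction (18.4% of all genes) and for 2 in the higher (17.1% of all genes). The median over members in the 3 MDA rats was -0.28, -0.16 and -0.15 from the ethanol mean, and in the 3 ethanol rats -0.082, 0.014 and 0.064. All MDA rats were below all ethanol rats.

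Complex I, the NADH dehydrogenase, had the lowest median of the 5 complexes under MDA. Of its 34 subunits 32 lay below 0, with a median of -0.30, and 9 passed the adjusted p, each lower. Its Ndufa subunits had a median of -0.33 and its Ndufb and Ndufc subunits of -0.32, and the Ndufs and Ndufv subunits, which include the core subunits measured, of -0.22. The medians of the other complexes were -0.28 for the 4 complex II subunits, -0.23 for the 7 of complex III, -0.19 for the 10 of complex IV and -0.16 for the 15 of ATP synthase. Differences between complexes were not tested. The 6 isoforms known from other tissues had a median of 0.057, with 1 below 0.

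**Figure D3:**
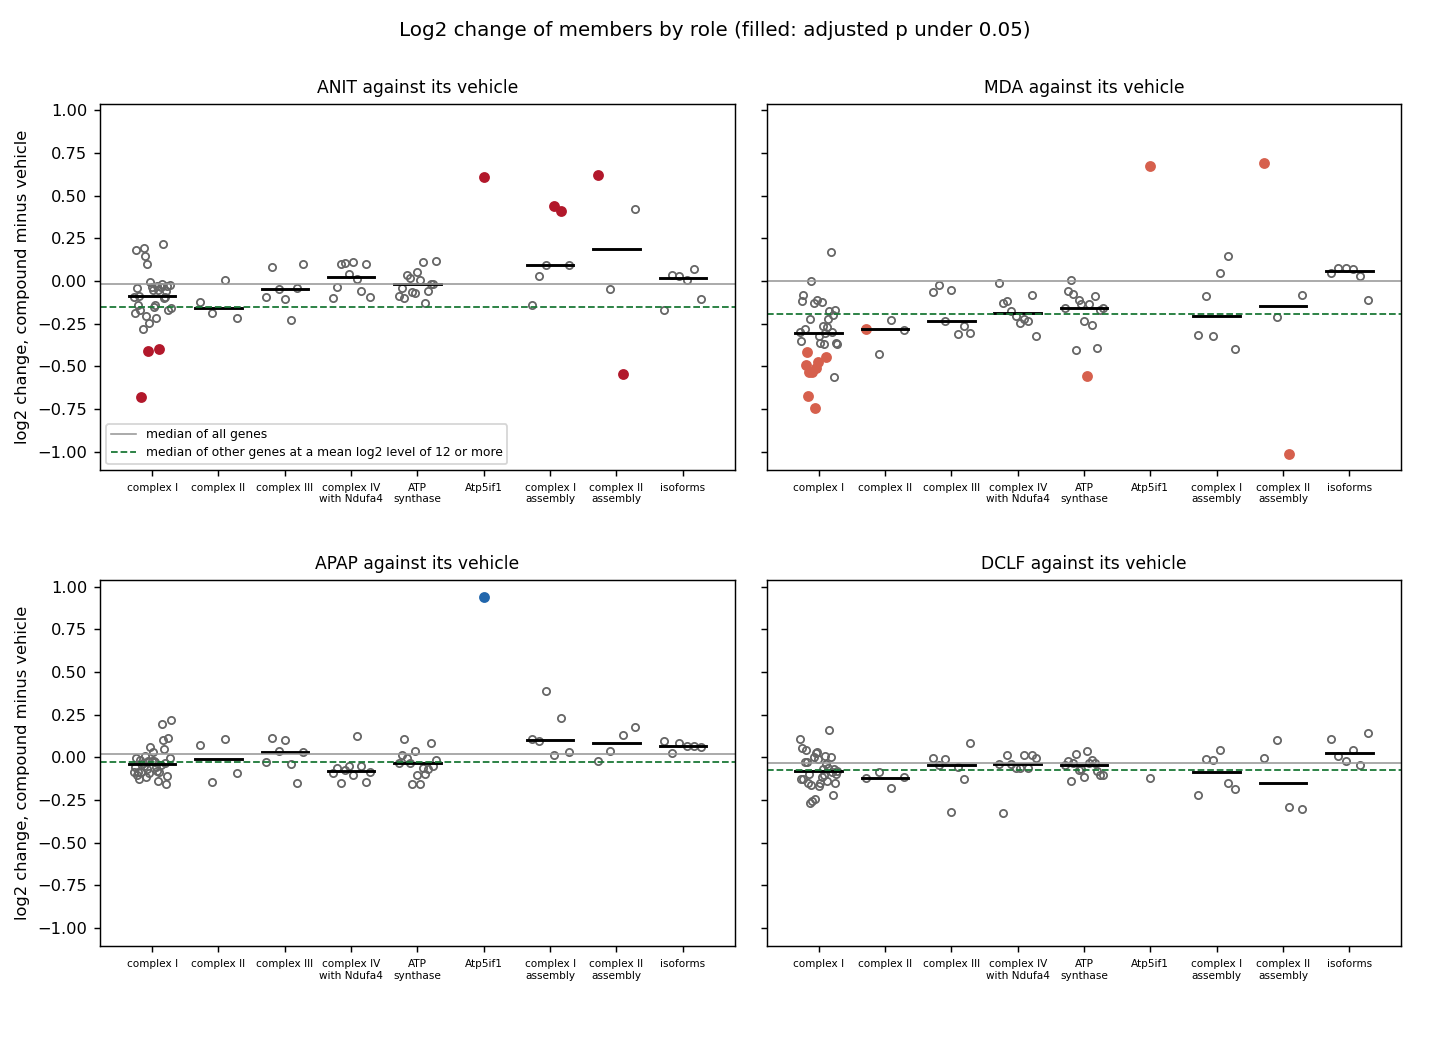
Log2 change of the members, all but Ndufa4l2, Cox7a2l and Cox6c-ps1, against their vehicle (points, filled where the adjusted p was under 0.05) by role in 4 panels, with the median of each role (black bar), of all genes (grey line) and of non-members at a mean log2 level of 12 or more (dashed green line). Under MDA the complex I points lie lowest with a median of -0.30, and Atp5if1 stands far above the ATP synthase subunits under ANIT, MDA and APAP.

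Bright genes in general were lower under MDA, and the members are mostly bright. The 858 other genes with a mean log2 level of 12 or more had a median MDA change of -0.19, with 69.2% below 0. The 52 members at that level had a median of -0.24, and 51 of them were below 0. By the adjusted p alone, 29.6% of all 910 genes at that level fell, those members included. Among members of any level 12 of 90 fell, and among complex I subunits 9 of 34. The 90th percentile of an array was 11.40 to 11.46 in MDA rats and 11.51 to 11.60 in ethanol rats. When all arrays were set to a common distribution by quantile normalization, the median of the members under MDA was -0.093 with 64 of 90 below 0, and 5 fell and 2 rose by the adjusted p. Complex I then had a median of -0.18 with 30 of 34 below 0, and the 36 other subunits of -0.059 with 25 below 0. The part of this level-dependent shift in the lower member values was not tested further.

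The called genes of complex I were Ndufb10 and Ndufa6. Ndufb10, an accessory subunit of the membrane arm, measured 11.81, 12.06 and 12.08 in ethanol rats and 11.12, 11.25 and 11.35 in MDA rats. No MDA rat reached an ethanol rat, and Ndufb10 fell by 0.74 ± 0.11 (adjusted p = 0.00366). Ndufa6, an accessory subunit of the LYR family that binds the acyl carrier protein Ndufab1, measured 12.74, 12.85 and 12.83 in ethanol rats and 12.49, 11.78 and 12.13 in MDA rats. MDA rats differed widely among themselves but all lay lower, and Ndufa6 fell by 0.67 ± 0.16 (adjusted p = 0.03). The Ndufa6 call was lost in 5 of 6 fits that left out a rat (MDA replicate 2 or 3, or any ethanol replicate, adjusted p from 0.0581 to 0.104) and after quantile normalization (-0.53, adjusted p = 0.127). Ndufb10 stayed called in all 6 such fits, between -0.83 and -0.68, but not with the methods' t-test (adjusted p = 0.0647).

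Members that passed the adjusted p without the fold under MDA were chosen for naming after their values were seen. In complex I they were Ndufab1 (-0.54), the mitochondrial acyl carrier protein, and the accessory subunits Ndufa7 (-0.53), Ndufb11 (-0.51), Ndufa3 (-0.49), Ndufb3 (-0.47), Ndufc1 (-0.44) and Ndufa5 (-0.42). A dimmer probe set of Ndufa7 gave -0.27 with overlapping groups and did not pass (adjusted p = 0.252). The others were Atp5mg (-0.55), subunit g of ATP synthase, and Sdha (-0.28, adjusted p = 0.0493), the flavoprotein of complex II that oxidises succinate. The iron-sulfur subunit Sdhb had -0.43 ± 0.14 and did not pass (adjusted p = 0.093). Leaving out 1 rat took the number of members past the adjusted p from 14 to between 3 (without MDA replicate 2, or without ethanol replicate 2 or 3) and 17 (without MDA replicate 3), and it was 7 without MDA replicate 1. Called members then numbered 2 (without ethanol replicate 2) to 11 (without MDA replicate 3), and 3 without MDA replicate 2 or ethanol replicate 1 or 3. The member median kept its sign in those fits, from -0.24 to -0.16.

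**Figure D4:**
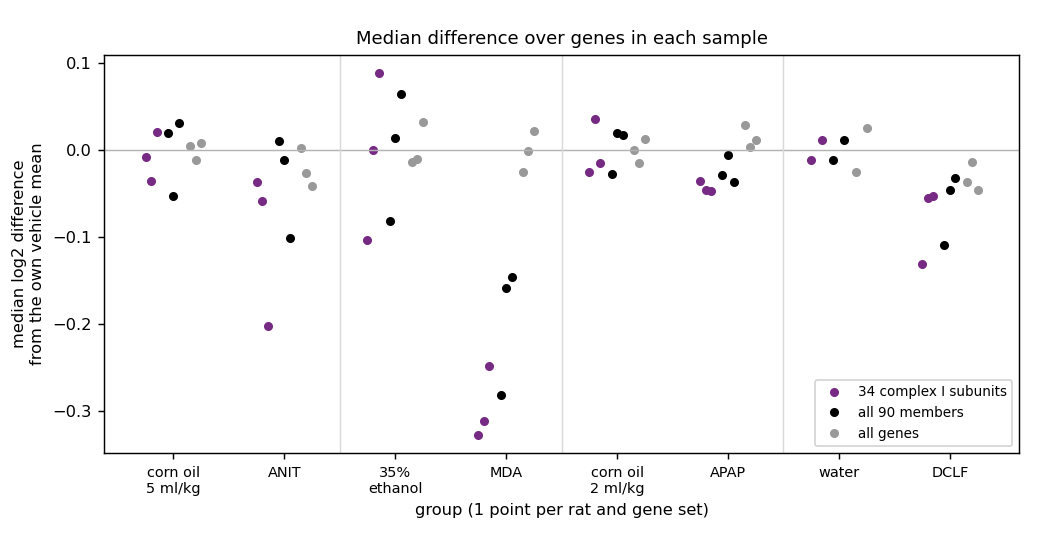
Median log2 difference from the own vehicle mean in each rat, over the 34 complex I subunits (purple), all 90 members (black) and all genes (grey). The 3 MDA rats lie at -0.28, -0.16 and -0.15 for the members while their all-gene medians lie near 0.

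ANIT moved few members. It called 3 of 90, 2 higher and 1 lower, against 7.22% of all genes (3.84% higher and 3.38% lower), and by the adjusted p alone 4 rose and 4 fell, against 12.8% of all genes (6.01% higher and 6.75% lower). The methods' t-test with an adjusted p called 0 and had 1 past the adjusted p. The member median was -0.041 and that of all genes -0.016, with 56 members below 0 (53.5% of all genes). Complex I subunits had a median of -0.089 with 29 of 34 below 0, and complex IV one of 0.026. Other genes at a mean level of 12 or more had a median of -0.15 under ANIT, lower than the -0.052 of the 52 members at that level. After quantile normalization the member median was 0.023, so that its direction depended on the scaling. Leaving out 1 rat gave 1 called member (without ANIT replicate 2), 2 (without corn oil replicate 2 or 3) or up to 5 (without ANIT replicate 3), and 2 to 9 past the adjusted p.

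Ndufa6 was the called gene that fell under ANIT. It measured 12.77, 12.78 and 12.89 with corn oil and 12.39, 11.98 and 12.03 with ANIT. All ANIT rats lay lower, and the fall of 0.68 ± 0.12 passed (adjusted p = 0.0116), but not without corn oil replicate 3 (-0.64, adjusted p = 0.0584). Ndufb10 fell by 0.41 ± 0.077 (adjusted p = 0.0159), short of the fold. It measured 11.999, 11.88 and 11.92 with corn oil and 11.59, 11.51 and 11.46 with ANIT, with no overlap. Ndufc1, chosen after its value was seen, fell by 0.40 ± 0.071 (adjusted p = 0.0131). Ndufaf5 and Ndufaf7, enzymes that modify complex I subunits during assembly, rose by 0.44 ± 0.093 (adjusted p = 0.025) and 0.41 ± 0.098 (adjusted p = 0.0381), the latter also named after its value was seen. A dimmer probe set of Ndufaf7 gave 0.12 (adjusted p = 0.38).

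Of the 4 assembly factors of complex II, Sdhaf1 rose and Sdhaf3 fell. Sdhaf1 and Sdhaf3, LYR proteins that act together in bringing iron-sulfur clusters to Sdhb, were each past the adjusted p in both bile duct toxicants. Sdhaf1 measured 11.22, 11.08 and 11.12 with corn oil and 11.74, 11.87 and 11.68 with ANIT. It rose by 0.62 ± 0.083 (adjusted p = 0.00419), with no overlap between groups. With ethanol it measured 10.83, 11.02 and 11.34, and with MDA 11.95, 11.69 and 11.63. Although the ethanol rats ranged widely they stayed below every MDA rat, and the rise was 0.69 ± 0.15 (adjusted p = 0.0175). The call was lost for ANIT without ANIT replicate 2 (0.57), and for MDA without MDA replicate 1 (0.60, adjusted p = 0.0527) or ethanol replicate 1 (0.58) or 2 (0.67, adjusted p = 0.0693).

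Sdhaf3 had the largest change of any member under MDA. It measured 10.97, 11.27 and 11.37 with ethanol and 10.15, 10.14 and 10.28 with MDA. The groups were far apart, and it fell by 1.01 ± 0.12 (2.02-fold, 95% interval -1.28 to -0.74, adjusted p = 0.00153), a call kept in each fit without 1 rat but not with the methods' t-test (adjusted p = 0.0576). With corn oil it measured 11.04, 11.02 and 10.96, and with ANIT 10.57, 10.24 and 10.58. Every ANIT rat was lower, and the fall of 0.54 ± 0.11 passed the adjusted p (0.0185) without reaching the fold. The other complex II assembly factors are Sdhaf2, which attaches the flavin to Sdha, and Sdhaf4, which protects the flavinated subunit, and neither passed in any comparison. Of the 4 subunits of complex II, only Sdha under MDA passed the adjusted p, and a second probe set of Sdhd, not used for the member, gave -0.48 under MDA (adjusted p = 0.0121) where the chosen one gave -0.28 (adjusted p = 0.107).

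**Figure D5:**
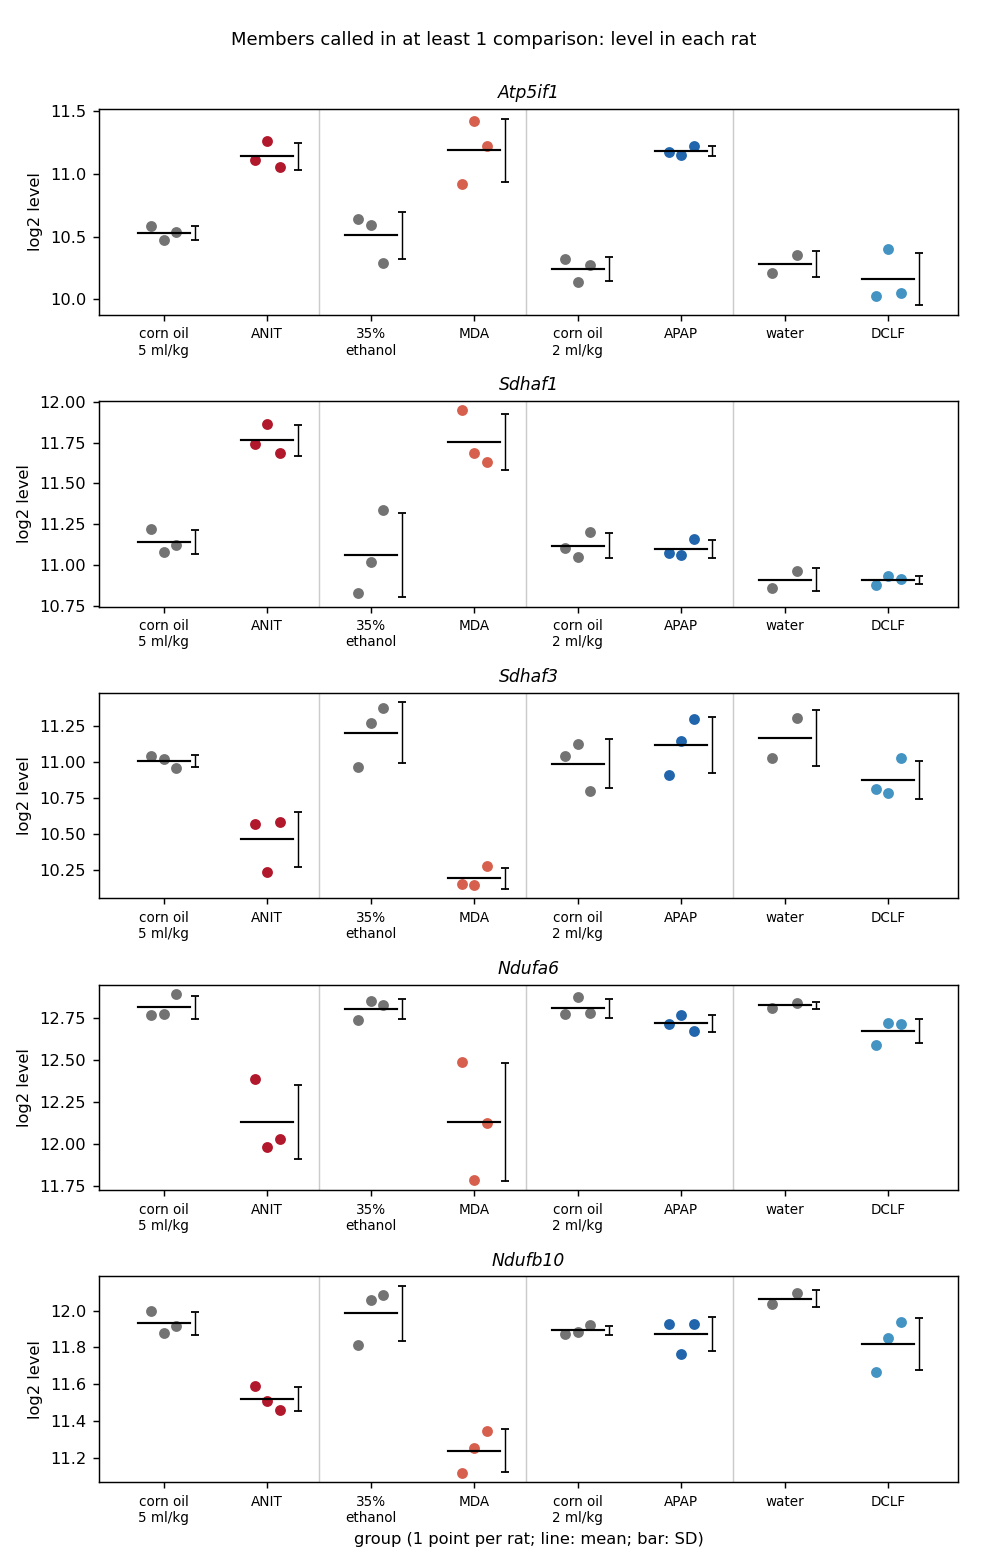
Log2 level of the 5 members called in at least 1 comparison, in each rat (points) of the 8 groups, with the group mean (line) and SD (bar). Atp5if1 is raised in ANIT, MDA and APAP rats but not in DCLF rats, Sdhaf1 is raised and Sdhaf3, Ndufa6 and Ndufb10 are lowered in ANIT and MDA rats.

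ANIT and MDA were run with different vehicles in different rats, under different title codes. What differs between the compounds cannot be told apart from what differs with vehicle or code. Of the 8 members past the adjusted p under ANIT, 6 were also past it under MDA, which is 75% of the ANIT members and 42.9% of the 14 MDA members, and all 6 had the same direction. Over all genes 52.8% of the 1814 ANIT genes and 40% of the 2394 MDA genes were shared, and 98.1% of those had the same direction. The 6 were Atp5if1, Sdhaf1, Sdhaf3, Ndufa6, Ndufb10 and Ndufc1. The difference between the effects, ANIT minus MDA, was past the threshold for 0 of 90 members in limma, against 1.67% of all genes called. At an unadjusted p under 0.05 limma had 20 members, against 14.3% of all genes, and the methods' t-test with an adjusted p had 0. The median of the difference was 0.20, with 15 members below 0, and the largest were Atp5mg (0.56 ± 0.14, adjusted p = 0.0879), Ndufs8 (0.54 ± 0.22, adjusted p = 0.346), an iron-sulfur core subunit, and Sdhaf4 (0.50 ± 0.22, adjusted p = 0.392). The intervals were wide, for Atp5mg from 0.25 to 0.87.

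APAP called 1 of 90 members, Atp5if1, against 0.324% of all genes (0.239% higher). The member median was -0.025 and that of all genes 0.018, and 55 members lay below 0 (44.6% of all genes). Other genes at a mean level of 12 or more had a median of -0.028 under APAP, with 57.5% below 0. The 52 members at that level had a median of -0.055, and 40 of them were below 0. After Atp5if1 the highest member was Ndufaf4, a complex I assembly factor, at 0.39 ± 0.14, which did not pass (adjusted p = 0.387). The lowest members, Atp5mc3, Ndufs7 and Atp5mg, each stood at -0.16 and did not pass. The inhibitor was 1.92-fold higher while the 15 subunits of the enzyme it binds ran from -0.16 to 0.11, none of them past the threshold.

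DCLF called 0 of 90 members in limma, where 0% of all genes were called. At an unadjusted p under 0.05 there were 7 members against 11.8% of all genes, and the methods' t-test with an adjusted p gave 0. The median was -0.057 and that of all genes -0.033, and 68 members lay below 0 (58.9% of all genes). Other genes at a mean level of 12 or more had a median of -0.0765 under DCLF, with 79.7% below 0. The 52 members at that level had a median of -0.051, and 41 of them were below 0. The lowest values were those of Cox5a (-0.32 ± 0.075, adjusted p = 0.294), a subunit of complex IV, Uqcrc2 (-0.32 ± 0.097, adjusted p = 0.313), a core protein of complex III, and Sdhaf4 (-0.30 ± 0.11, adjusted p = 0.366). A brighter probe set, shared by Cox5a and a second gene and so outside the members, gave -0.091 for DCLF (adjusted p = 0.643). After quantile normalization the member median was 0.015. Water had 2 rats.

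APAP and DCLF were compared as a difference between their effects. Atp5if1 was the member called, at 1.06 ± 0.15 (95% interval 0.73 to 1.39, adjusted p = 0.032), against 0.134% of all genes. The other 89 members did not pass, and the median over all members was 0.025. These values come from the brightest probe set of Atp5if1. The next gave 0.46 (limma, adjusted p = 0.279), and the dimmest had the opposite sign, at -0.33 (adjusted p = 0.655). With the mean of the 3 probe sets the Atp5if1 difference was 0.40 (adjusted p = 0.228). Of 11 fits without 1 rat the call was kept in 1, that without DCLF replicate 2.

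Catalytic and core subunits were described from a fixed list of 10 genes. Of Ndufs1, Ndufv1, Sdha, Sdhb, Uqcrfs1, Uqcrc1, Cox4i1, Cox5a, Atp5f1a and Atp5f1b, Sdha under MDA was the only value past the adjusted p in the 4 compounds. Under MDA their changes ran from -0.43 for Sdhb to -0.013 for Cox4i1. All 6 core subunits of complex I that were measured lay below 0 under MDA, with a median of -0.21, the lowest being Ndufs8 at -0.56 and Ndufv2 at -0.37, neither past the adjusted p. Under ANIT they ran from -0.23 for Uqcrfs1, the Rieske protein, to -0.018 for Ndufs1, and under APAP from -0.15 for Sdhb to 0.20 for Ndufs1. Under DCLF they ran from -0.32 for Cox5a to -0.0091 for Uqcrc1. The ATP synthase catalytic subunit Atp5f1b had -0.043, -0.058, 0.014 and -0.023 for ANIT, MDA, APAP and DCLF. Its log2 interval under MDA was -0.26 to 0.14.

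The c-ring of ATP synthase, the rotor driven by protons, is encoded by 3 genes. Atp5mc3 had -0.062, -0.11, -0.16 and -0.075 for ANIT, MDA, APAP and DCLF, none past the threshold. Atp5mc1 and Atp5mc2 were each named by a probe set shared with a second gene, were therefore no members, and did not pass in any comparison. Of the isoforms of complex IV, Cox4i2 (lung), Cox6a2, Cox7a1 and Cox8b (muscle) and Cox6b2 (testis), and of Ndufa4l2, none passed in any comparison. Their changes over the 4 compounds ran from -0.17 (Cox4i2, ANIT) to 0.14 (Cox8b, DCLF).

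Genes that serve the chain from outside the member rule were counted from fixed lists. Of all genes limma called 7.22% for ANIT, 9.13% for MDA, 0.324% for APAP and 0% for DCLF. At an unadjusted p under 0.05 limma had 3979 of the 14217 genes for ANIT, 4527 for MDA, 1655 for APAP and 1684 for DCLF. Of 16 electron carriers and ubiquinone genes, ANIT called 1 higher and 3 lower and MDA 2 lower. Etfb, a subunit of the flavoprotein that brings electrons from fatty acid oxidation, fell by 0.82 ± 0.11 under ANIT (adjusted p = 0.00359) and by 0.73 ± 0.10 under MDA (adjusted p = 0.00334). Etfdh, which passes those electrons to ubiquinone, fell by 0.59 ± 0.077 under ANIT (adjusted p = 0.00393). The ubiquinone-binding proteins Coq10a and Coq10b moved apart under ANIT, at -0.92 ± 0.16 (adjusted p = 0.0122) and 0.84 ± 0.19 (adjusted p = 0.0303). Pdss2, which makes the ubiquinone tail, fell by 0.60 ± 0.12 under MDA (adjusted p = 0.0141). Cyc1, cytochrome c1, did not pass in any comparison, and Cycs was not measured by a probe set of its own.

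Among 34 further assembly factors limma called 0 for ANIT (10 at an unadjusted p under 0.05, and 0 by the methods' t-test) and 1 for MDA, the complex III factor Ttc19 (-0.73 ± 0.087, adjusted p = 0.0017). By the adjusted p alone 4 fell under ANIT and 8 under MDA (6.75% and 8.55% of all genes), and 0 rose (6.01% and 8.29%). Among 16 regulators of mitochondrial biogenesis ANIT called Tfam (-0.60 ± 0.088, adjusted p = 0.00598), which packages and transcribes mitochondrial DNA, and Polg (-0.64 ± 0.13, adjusted p = 0.0219), which replicates it. MDA called Tfb2m (-0.61 ± 0.079, adjusted p = 0.00245), a mitochondrial transcription factor. Ppargc1a had 0.33, 0.15, -0.18 and -0.099 for ANIT, MDA, APAP and DCLF, and Nrf1 -0.21, -0.19, 0.024 and -0.063, and neither passed. Of 13 genes of pyruvate dehydrogenase and the tricarboxylic acid cycle, Suclg2, a succinyl-CoA ligase subunit, was called in ANIT (-0.61 ± 0.11) and MDA (-0.78 ± 0.097), and Cs, citrate synthase, in neither. The mitochondrial unfoldase Clpx fell by 0.94 ± 0.14 under ANIT and by 0.59 ± 0.088 under MDA, the called gene of 11 chaperones and proteases. Of 13 import and outer membrane genes limma called 0 under ANIT and 0 under MDA. At an unadjusted p under 0.05 there were 5 and 4 of them, against 3979 and 4527 of all 14217 genes. In all 6 lists, 103 genes together, limma called 0 for APAP and 0 for DCLF, with 8 and 16 at an unadjusted p under 0.05, and the methods' t-test at its own threshold (p under 0.01 with the fold) called 0 in either.

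Markers of other cell types moved with ANIT and MDA. Among all genes, ANIT called 3.84% higher and 3.38% lower, and MDA 4.9% higher and 4.23% lower. At an unadjusted p under 0.05 MDA had 4527 of all 14217 genes. Under MDA 10 of 13 macrophage markers rose, their mean log2 level being 11.21 to 11.39 in MDA rats and 10.21 to 10.43 in ethanol rats. Of stellate cell and fibroblast markers 8 of 15 rose and 1 fell (10.12 to 10.47 against 9.28 to 9.69), and of cholangiocyte markers 3 of 12 rose (8.94 to 9.20 against 8.61 to 8.62). Of 16 hepatocyte markers 1 rose and 4 fell under MDA, with a mean level of 14.45 to 14.60 against 14.73 to 14.80. Lymphocyte markers (3 of 13) and neutrophil markers (2 of 9) rose too, and of 9 endothelial markers 0 were called by limma (5 at an unadjusted p under 0.05, 0 by the methods' t-test). Under ANIT 6 of 15 stellate cell markers rose and 1 fell (10.14 to 10.56 against 9.66 to 9.80), 3 of 13 macrophage markers rose and 1 fell (10.60 to 11.04 against 10.50 to 10.69), 1 of 12 cholangiocyte markers rose (8.78 to 9.35 against 8.47 to 8.52), 1 of 16 hepatocyte markers rose, 1 of 13 lymphocyte markers fell and 2 of 9 endothelial markers fell. Neutrophil markers under ANIT had 0 of 9 called by limma and 0 by the methods' t-test. At an unadjusted p under 0.05 there were 2 of them, against 3979 of all 14217 genes. Though 1 hepatocyte marker rose under ANIT, 12 of the 16 lay below 0 (53.5% of all genes), with a median of -0.22. Their mean levels overlapped (14.07 to 14.82 against 14.08 to 14.78). In APAP and DCLF limma called 0 of the 87 markers of the 7 lists, and the methods' t-test called 1 and 0. At an unadjusted p under 0.05 there were 7 and 4 markers, against 1655 and 1684 of all 14217 genes. Their part in the member results was not tested.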

How the data were processed

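Liver RNA of each rat was hybridised to an Affymetrix rat genome array, and the authors normalized the arrays by RMA in Array Studio and deposited log2 values. Values were used as deposited. Control probe sets (57) were left out, and the remaining 31042 were tested. Genes were named through the platform annotation (20826 probe sets with 1 gene, 436 with several, 9780 with none) and updated through the name table of GRCr8. Each compound was compared with its own vehicle in R 4.3.3 with limma 3.58.1 (two-sided, Benjamini-Hochberg over all probe sets, only the groups compared), and effects were compared over their 4 groups. The script was tested on simulated data. The study's methods name a two-sided t-test without stating its variance assumption, and the equal-variance form used here is called the methods' t-test. For differences between effects that form was extended to the 4 groups, which the study's methods do not describe. Members and lists were chosen with earlier results of these data known. Named genes were fixed subunit and isoform genes, up to 12 called members and the 3 highest and 3 lowest per comparison, and up to 3 called genes per other list. Alternatives were that t-test, quantile normalization, median centring, leaving out dim probe sets (the lowest 0.25 by mean level), all groups in 1 fit, the mean of a gene's probe sets and leaving out each rat. The rats of a group are separate animals, and 0 pairs of arrays held identical values. Sequencing data and carbon tetrachloride rats were not analysed here.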

Additional observations from a re-analysis of the deposited data

Results flagged for a closer look

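The effect on Atp5if1 differed between APAP and DCLF by 1.06 on the log2 scale in the test of the difference itself (limma, adjusted p = 0.032). Leaving out 1 rat kept the value between 0.99 and 1.18, but the adjusted p passed the threshold in 1 of 11 such fits, that without DCLF replicate 2, and was highest without water replicate 2 (0.196). With the mean of the gene's 3 probe sets the difference was 0.40 (adjusted p = 0.228). Those values are of the brightest probe set and of the mean. The next probe set alone gave 0.46 (limma, adjusted p = 0.279), and the dimmest had the opposite sign, at -0.33 (adjusted p = 0.655).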

How the results depend on the processing

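No paired analysis was possible because each array held a different rat and the replicate numbers name samples only. With the methods' t-test and an adjusted p, members called numbered 0 for ANIT, MDA, APAP and APAP minus DCLF, and members past the adjusted p alone 1 for ANIT, 1 for MDA, 0 for APAP and 0 for APAP minus DCLF; with its unadjusted p under 0.01 MDA called 2. Quantile normalization gave medians of 0.023 (ANIT), -0.093 (MDA), 0.015 (DCLF), 0.14 (ANIT minus MDA) and -0.033 (APAP minus DCLF), and 7 MDA members past the adjusted p. Median centring gave -0.00445 for APAP minus DCLF. With all 8 groups in 1 fit 37 MDA members and 2 for ANIT minus MDA passed the adjusted p. The mean of all probe sets gave 0 called and 0 past the adjusted p for APAP and for APAP minus DCLF.

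Leaving out 1 rat gave called members from 1 to 5 (ANIT; 1 without ANIT replicate 2, 2 without corn oil replicate 2 or 3, 5 without ANIT replicate 3), 2 to 11 (MDA; 2 without ethanol replicate 2, 3 without MDA replicate 2 or ethanol replicate 1 or 3, 11 without MDA replicate 3), 0 to 1 (ANIT minus MDA; 1 without MDA replicate 3) and 0 to 1 (APAP minus DCLF). Members past the adjusted p ranged from 2 to 9 (ANIT; 4, 3 and 2 without corn oil replicate 1, 2 and 3), 3 to 17 (MDA), 0 to 1 (ANIT minus MDA) and 0 to 1 (APAP minus DCLF). Medians ranged from -0.057 to -0.0088 (ANIT), -0.24 to -0.16 (MDA), -0.073 to -0.036 (DCLF), 0.15 to 0.23 (ANIT minus MDA) and 0.0098 to 0.044 (APAP minus DCLF). APAP called 1 in each such fit and DCLF 0. The Atp5if1 call was lost under ANIT without ANIT replicate 2 (0.55) or corn oil replicate 2 (0.58), and under MDA without MDA replicate 2 (0.56) or 3 (0.66) or ethanol replicate 2 (0.72) or 3 (0.57). Of the named genes' values, 1783 kept their side of the threshold, 40 lost the call and 4 gained it. Most of the 1783 were called in neither setting and had no call to lose. The 40 came from the few values called in the main setting, so the pooled count understates how often calls were lost. Of values called in either setting 0 reversed direction, and reversals of values called in neither were not counted. Apart from the constructions named (fewer rats, averaged probe sets, another distribution), the cause was not tested. Signal over background per probe set was not analysed here, so dim isoforms limit what can be seen.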

Other observations

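Probe sets shared by several genes, 7 in number and each naming at least 1 gene that fits the member symbols, stood outside the counts. The one shared by Cox7a2 and Cox7a2l2 gave -0.54 ± 0.12 under MDA (limma, adjusted p = 0.0212), and it was the only 1 of the 7 past the adjusted p in any comparison. Those shared by Atp5mc1 and Atp5mc1l1 and by Atp5mc2 and Atp5mc2l1 gave -0.23 ± 0.11 and -0.32 ± 0.14 under MDA and did not pass.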
